A study of Brassica napus with 10 samples.

Results

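The genes outside the study's list of ER stress genes were compared between embryogenic structures from heat-stressed *Brassica napus* microspore cultures given the low dose of trichostatin A (HS + TSA_low, 4 libraries) and pollen developing in vitro (3 libraries). The members were taken from the deposited count table by removing rows that repeated another row exactly and then the 52 genes with counts that the study lists as ER stress genes. This left 59406 of 59458 genes, measured in 7 of the 10 libraries of the series. The study asked how ER stress genes are regulated when a microspore turns to embryogenesis in culture in place of pollen development, and the other genes give the transcriptome around that list.

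All cultures carried the pLEC1:LEC1-GFP reporter in the DH12075 background, and RNA was taken from cultures that were 3 days old. HS + TSA_low cultures received 0.05 µM TSA during a heat stress of 33 °C for 24 h and were then kept at 25 °C, and GFP-positive structures were sorted by flow cytometry. The HS + TSA_high libraries (3) came from cultures treated in the same way with 0.5 µM TSA. Pollen cultures stayed at 18 °C, had no heat stress or TSA and were not sorted. Each library came from about 150000 cells. Cell type, heat, TSA, later temperature and sorting therefore changed together between HS + TSA_low and pollen and cannot be told apart. The sort gates on the LEC1 reporter, so the embryogenic sample is the GFP-positive part of its culture, whereas the pollen sample is whatever the culture held. The cell type labels could not be checked against marker genes, because 0 gene IDs matched the reference gene table that would pair IDs with names.

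A microspore is the immature male gametophyte, which normally becomes pollen by asymmetric division. In *B. napus* a short heat stress can divert it to form a haploid embryo or callus, and TSA, an inhibitor of histone deacetylases, raises the share of embryogenic structures. LEC1 encodes a subunit of the NF-Y transcription factor family that is active in early embryos. *B. napus* is an allotetraploid, with an A subgenome related to *B. rapa* and a C subgenome related to *B. oleracea*, so most genes have at least a pair of related copies.

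Library totals ranged over 51838498 to 61458274 counts in HS + TSA_low, 58468526 to 67884748 in HS + TSA_high and 93367646 to 109105528 in pollen, so that pollen was counted most deeply. Between 65.8% and 75.2% of the counts were even numbers, from which it was inferred that both mates of many read pairs were counted and that the totals overstate the number of independent fragments. Values are given as CPM, a gene's counts scaled to the total of its library, so that they are shares of a library's RNA. In bulk RNA fewer cells of a type and less RNA per cell cannot be told apart. Genes were tested with the edgeR quasi-likelihood test, with all 10 libraries in 1 fit, and a gene was called where its p, adjusted by Benjamini-Hochberg over all genes tested, did not exceed 0.05.

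The HS + TSA_low libraries were not equally alike. Libraries 1 and 4 differed from each other with a chi-square per degree of freedom over genes of 7.63, against 29.7 to 56.3 for the other pairs of HS + TSA_low libraries and 37.6 to 41.04 for pairs of pollen libraries. No noise level was measured for this value, and counted mates and PCR copies, which are not independent, also raise it. It therefore does not show that libraries 1 and 4 are independent. Libraries 1 and 4 were kept as separate libraries because the labels call them biological replicates. They also shared 3 chromosome blocks, described below, in which most genes were far below pollen. Some counts that rest on the libraries are also given without libraries 1 and 4, or without the other HS + TSA_low libraries. The total numbers of members called higher and lower are not given without either pair.

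Of the tested genes 26.4% were higher in embryogenic structures than in pollen, and the genes that rose did so by more than the genes that fell. Of 45212 members that passed the filter on low counts, 11934 (26.4%) were higher in HS + TSA_low than in pollen, 7824 (17.3%) were lower and 25454 were not called. Over all 45264 genes tested, 26.4% were called higher, 17.4% lower and 43.7% in either direction. A further 14194 members did not pass the filter, among them 5564 with 0 counts in every library. Genes called higher made up 60.4% of the called members, and 57.9% to 63.6% under the other scalings of the libraries. The excess was smaller with only the HS + TSA_low and pollen libraries in the fit, where 11768 were higher and 9843 lower. The median log2 fold change over all tested members was 0.11, with quartiles at -0.62 and 1.27.

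The sizes of change were unequal. The median log2 fold change was 2.39 (5.26-fold) among members called higher and -1.08 (2.12-fold) among members called lower. Because 1050 of the members called higher had 0 counts in all pollen libraries, and 143 of those called lower had 0 counts in all HS + TSA_low libraries, these genes were set to a lower bound, computed against a floor of 3 counts over the group at 0. With these genes at their bound the medians were 2.39 and -1.08. Changes of at least 4-fold were found in 6778 members called higher and 1286 called lower, or 56.8% and 16.4% of each set. At the bound, changes of at least 16-fold numbered 3603 higher and 365 lower, changes of at least 64-fold 1619 and 56, and changes of at least 1024-fold 185 and 0. The 1050 genes with 0 counts in pollen were at least 4.52-fold higher in HS + TSA_low, with a median bound of 73.2-fold.

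**Figure D1:**
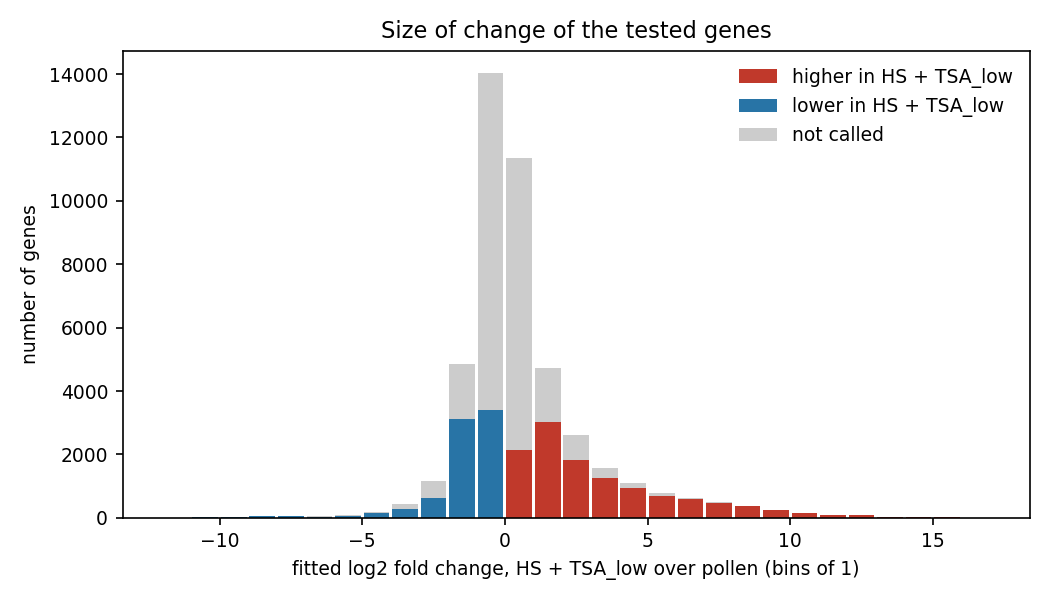
Number of tested members by fitted log2 fold change of HS + TSA_low over pollen, in bins of 1, with genes called higher in red, lower in blue and not called in grey. Genes with 0 counts in 1 group stand at their fitted value, which depends on the fit's prior count. The 11934 genes called higher reach further from 0 than the 7824 called lower.

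The individual libraries were apart as well. In 11316 of the members called higher (94.8%), every HS + TSA_low library was above every pollen library, and in 7611 of those called lower (97.3%) every HS + TSA_low library was below. Over all tested members, 13443 (29.7%) had all HS + TSA_low libraries above and 10999 (24.3%) had all of them below. The counts called higher and lower were 10851 and 6773 with the replicate number as a block in the fit. Only HS + TSA_low has a library 4, so that block also took this library out of the contrast.

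The shares called differed with the abundance of a gene. The tested members were divided into 5 groups of equal size by the average of the HS + TSA_low and pollen mean CPM. In the group of lowest CPM, 23.01% were higher in HS + TSA_low and 4.18% were lower, with a median log2 fold change of 1.06. The filter on low counts could be passed through the embryogenic libraries alone, of which there were more than pollen libraries, and could help to set the direction in this group, where 5.74% of members were under 0.1 CPM in every HS + TSA_low library and 25.04% in every pollen library. In the second group these shares were 34.4% and 7.34%, and in the third 27.2% and 15.6%. In the group of highest CPM 25.1% were higher and 33.2% were lower, with a median log2 fold change of -0.15. The share called lower rose from each group to the next, whereas the share called higher was greatest in the second. Genes at 1 CPM or more numbered 35420, 36593, 36488 and 35188 in HS + TSA_low libraries 1 to 4, against 32779, 32866 and 32085 in pollen libraries 1 to 3. HS + TSA_low thus had 3346 more such genes on average, and its libraries did not overlap with pollen (exact permutation test over libraries, two-sided p = 0.0286, the smallest that 35 splits allow, adjusted p = 0.0357 over 5 measures). The pollen libraries had the larger totals, and the effect of depth on this number was not tested. The genes of highest CPM that together held 50% of the counts numbered 3108, 3002, 2715 and 3171 in HS + TSA_low, against 3223, 3106 and 3034 in pollen, and the groups overlapped (p = 0.486, exact permutation test).

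Many genes that were silent in pollen were on in embryogenic structures, and hardly any genes active in pollen were off. A gene was called on where every pollen library was under 0.1 CPM and every HS + TSA_low library was at 1 CPM or more, and off where the reverse held. Of 15024 members under 0.1 CPM in every pollen library, 648 (4.31%) were on. Of 30920 members at 1 CPM or more in every pollen library, 18 (0.0582%) were off. These sets were chosen by the compared values, and all 648 and all 18 were past the edgeR threshold, in the direction their bounds set. Relaxing the bounds to 0.05 and 0.5 CPM gave 35 genes off.

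The on genes had a median mean level of 5.58 CPM in HS + TSA_low and a highest of 599 CPM, with 197 at 10 CPM or more and 15 at 100 CPM or more. In 263 of them no pollen library had a single count. Together they held 6613, 13704, 12597 and 6304 CPM in HS + TSA_low libraries 1 to 4, against 9.41, 8.895 and 7.64 CPM in pollen libraries 1 to 3. Libraries 2 and 3 thus gave them a larger share of RNA than libraries 1 and 4. They lay on both subgenomes, 324 on A chromosomes, 319 on C chromosomes and 5 on scaffolds, which was 1.19% of all members on A and 1.02% on C. Single-exon genes made up 27.3% of the on genes and 16.3% of all tested members, and 3 on genes had 20 or more exons. All tested members are not a like background, since on genes come only from members silent in pollen. Single-exon genes were 2526 of the 9043 tested members in the group of lowest CPM, and 779 of 9043 in the highest. Their share among the silent members was not computed, so no excess among on genes is shown. At the high dose 519 of the 648 were at 1 CPM or more in every HS + TSA_high library and 0 were under 0.1 CPM in all of them.

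The library decided how many silent genes were seen. Members silent in pollen that reached 1 CPM numbered 843, 1297, 1199 and 818 in HS + TSA_low libraries 1 to 4, and 1182, 1524 and 1577 in HS + TSA_high libraries 1 to 3. At least 1 HS + TSA_low library reached this level for 1552 genes. Without libraries 1 and 4, 1015 genes were on. Members active in pollen that were under 0.1 CPM numbered 311, 210, 97 and 333 in HS + TSA_low libraries 1 to 4, and 589, 294 and 563 in HS + TSA_high libraries 1 to 3. Leaving out the blocks on C02, C04 and C07 changed the HS + TSA_low numbers to 97, 205, 97 and 106, so that libraries 1 and 4 came to the level of library 3 and library 2 stood alone.

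**Figure D2:**
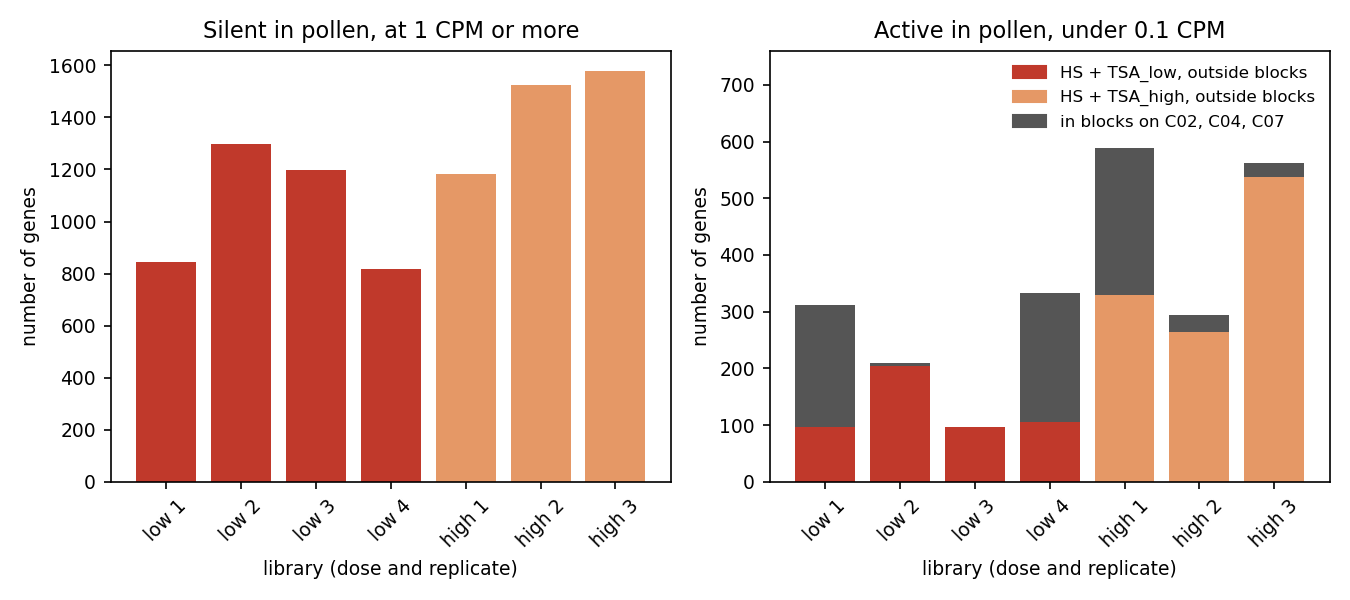
Left, genes silent in every pollen library (under 0.1 CPM) that reached 1 CPM in each HS + TSA_low (red) and HS + TSA_high (orange) library; right, genes at 1 CPM or more in every pollen library that were under 0.1 CPM, with those inside the chromosome blocks in grey. Among the HS + TSA_low libraries, 1 and 4 show the fewest silent genes on (843 and 818) and, with the blocks, the most active genes under 0.1 CPM (311 and 333), while HS + TSA_high libraries 1 and 3 have more such active genes (589 and 563).

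The 18 off genes were low in pollen, with a median of 2.69 CPM and a highest of 5.51 CPM, and 5 of them reached 1 CPM in at least 1 HS + TSA_high library. They comprised 7 genes on A and 11 on C chromosomes, and 0 lay in a block. A looser limit gave few more, since 46 members active in pollen (0.149%) were lowered by at least 32-fold. The number off depended on which HS + TSA_low libraries were counted. Without libraries 1 and 4 it was 53, without libraries 2 and 3 it was 269, without library 3 alone 41 and without pollen library 3 alone 36. When libraries 1 and 4 alone were read against all pollen libraries with the CPM of the full fit, 259 genes were off, of which 194 lay in the blocks.

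The most abundant on gene was A08p21280.1_BnaDAR (A08, 18836169 to 18837441, minus strand, 2 exons, Darmor-bzh version 10), to which the files give no name. It had 279, 919, 953 and 244 CPM in HS + TSA_low libraries 1 to 4 and 49.3, 190 and 366 CPM in HS + TSA_high, against 0.0204, 0.0810 and 0 CPM in pollen. Its level in libraries 2 and 3 was more than that in libraries 1 and 4, and no HS + TSA_low library overlapped with pollen. The pollen libraries held 10 counts of it in all, and the ratio of pooled levels was 18712 (exact 95% interval 10175 to 39022, counting error only; edgeR adjusted p = 7.86e-05). It was not called by limma-voom (adjusted p = 0.140). Among off genes the highest in pollen was A04p10200.1_BnaDAR (A04, 8222808 to 8224958, minus strand, 1 exon), also unnamed. It had 0.0379, 0, 0 and 0 CPM in HS + TSA_low libraries 1 to 4, which were 2 counts in all, and 0 CPM in each HS + TSA_high library, against 4.83, 5.76 and 5.93 CPM in pollen. Pollen was 623-fold higher (exact 95% interval 172 to 5148, counting error only; edgeR adjusted p = 7.47e-05).

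Genes of the A and C subgenomes differed little in how they changed. On the 10 A chromosomes 27.9% of 21348 tested members were higher in HS + TSA_low and 17.6% were lower, and on the 9 C chromosomes 24.9% of 23363 were higher and 17.1% lower. The median log2 fold changes were 0.14 on A and 0.08 on C. The A chromosomes exceeded the C chromosomes by 2.98 points in the share called higher, and by 2.13 points once the genes of the 3 blocks were left out, when 25.8% of C genes were higher and 17.6% lower. The share of counts on A among those on A and C was 49.999%, 50.44%, 50.07% and 49.98% in HS + TSA_low libraries 1 to 4, against 49.49%, 49.54% and 49.40% in pollen libraries 1 to 3. The groups did not overlap, with HS + TSA_low higher by 0.645 points (exact permutation test, two-sided p = 0.0286, adjusted p = 0.0357). Without the blocks the difference was 0.498 points (p = 0.114, exact permutation test), so the A share of RNA was past the threshold only with those genes in the count.

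The single chromosome that stood apart was C02. There 18.0% of tested members were higher and 11.4% lower, against 24.8% to 30.7% higher and 15.6% to 19.3% lower on the other 18 chromosomes. When chromosomes were read in windows of 20 genes above 5 CPM, the HS + TSA_low libraries differed from each other by more than 1 log2 unit in 35 of 1633 windows, and 28 of these formed 3 runs. The runs covered C02 from 45377906 to 62296526 (972 genes), C04 from 244460 to 7052493 (530 genes) and C07 from 45577965 to 47295033 (191 genes). Without its block, 22.9% of C02 genes were higher and 13.2% lower. These regions were found after the values had been seen and are described without a test.

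In the C02 block the median log2 difference to the pollen mean was -3.35, -0.26, 0.48 and -3.40 in HS + TSA_low libraries 1 to 4, and -3.81, -1.53 and -1.17 in HS + TSA_high libraries 1 to 3. In the C04 block the HS + TSA_low values were -2.40, -0.22, 0.43 and -2.30, and in the C07 block -2.10, -0.05, 0.70 and -2.09. The HS + TSA_high values were -2.50, -1.26 and -0.92 in the C04 block and -2.68, -0.96 and -0.59 in the C07 block. At the median gene HS + TSA_low libraries 1 and 4, and HS + TSA_high library 1, were thus far below pollen in the same 3 regions. HS + TSA_high libraries 2 and 3 were also below pollen there, by less, whereas HS + TSA_low libraries 2 and 3 were near pollen or above it. Summed over all genes of a block the gap was smaller. The C02 block held 1418, 4497, 6645 and 1348 CPM in HS + TSA_low libraries 1 to 4, against 4019, 5616 and 5402 CPM in pollen libraries 1 to 3. The C04 block held 1291, 3057, 5004 and 1064 CPM in HS + TSA_low, against 3008, 4135 and 3609 CPM in pollen, and the C07 block 388, 836, 1262 and 366 CPM in HS + TSA_low, against 680, 933 and 921 CPM in pollen. Libraries 1 and 4 were below every pollen library in each block, and part of the blocks' RNA remained in them. Genes at 5 CPM or more in pollen were under 0.1 CPM in 65 and 69 of 195 cases in the C02 block in libraries 1 and 4, and in 0 cases in libraries 2 and 3. In the C04 block these were 38 and 44 of 139 genes, and in the C07 block 11 and 10 of 36. Outside the blocks 0.0593%, 0.216%, 0.0466% and 0.0720% of 23626 such genes were under 0.1 CPM in libraries 1 to 4.

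**Figure D3:**
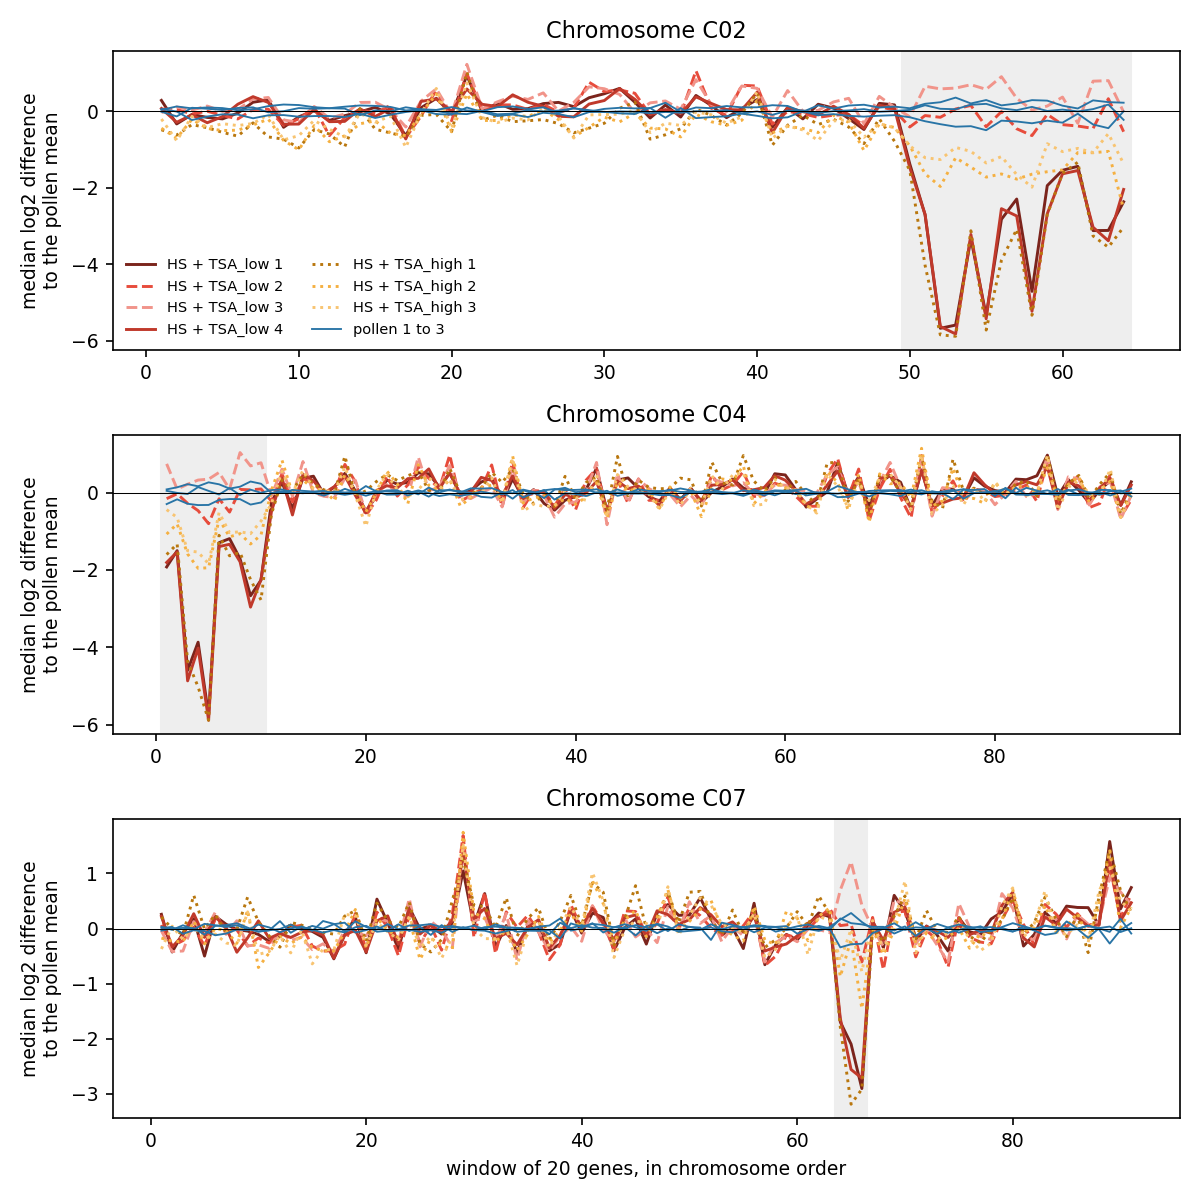
Median log2 difference of CPM to the pollen mean in windows of 20 genes along chromosomes C02, C04 and C07, in chromosome order, with 1 line per library (HS + TSA_low red, HS + TSA_high orange and dotted, pollen blue) and the blocks shaded. In nearly all windows of the 3 blocks HS + TSA_low libraries 1 and 4 and HS + TSA_high library 1 fall below the other libraries. In C02 window 64 HS + TSA_high library 2 (-2.55) is below HS + TSA_low libraries 1 and 4 (-2.36 and -2.04). Outside the blocks the lines lie closer together. In most C02 windows there the HS + TSA_high libraries still lie below the others, as in window 49 (-0.78, -0.42 and -0.43 in libraries 1 to 3, against 0.02 to 0.17 in HS + TSA_low).

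Few block genes were called. Of 1047 tested members in the blocks 71 (6.78%) were higher in HS + TSA_low and 71 (6.78%) were lower. Without libraries 2 and 3, 308 of 581 tested C02 block genes were lower than in pollen, as were 185 of 339 in the C04 block and 69 of 129 in the C07 block. Without libraries 1 and 4, 18 of 627 C02 block genes (2.87%) were lower and 71 (11.3%) were higher. HS + TSA_high library 1 stayed in that fit. For the 1047 block members the like shares, from the same fit with all libraries, were 26.4% higher and 17.4% lower of all genes tested, 43.7% in either direction. The counts without a pair of libraries come from other fits. Their shares over all genes are not given here, so these counts stand without a background. What sets libraries 1 and 4 apart in these regions was not tested. Over all chromosomes, blocks included, gene density made little difference. In 5 groups by gene density, with 8008 to 9652 tested members each, 25.4% to 27.5% of the tested members were higher and 16.01% to 18.7% were lower. Among 35757 pairs of neighbouring tested genes, the second gene was higher in 29.8% of the pairs whose first gene was higher and in 26.6% of all pairs. It was lower in 19.2% of the pairs whose first gene was lower and in 17.5% of all pairs.

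Exon number went with the direction of change. Among tested members with a single exon 34.2% of 7365 were higher in HS + TSA_low and 9.11% were lower, whereas among those with 20 or more exons 10.3% of 1534 were higher and 38.5% lower. The classes between ran in order, with 31.3%, 30.2%, 22.2% and 16.5% higher for 2, 3 to 5, 6 to 10 and 11 to 19 exons, and 11.3%, 12.9%, 20.7% and 30.2% lower. Median log2 fold changes were 0.65, 0.39, 0.27, -0.02, -0.28 and -0.48 over the 6 classes.

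Genes with more exons are longer and were more abundant, so that the classes were also read within 3 groups of equal size by summed exon length (short, middle and long) and within the 5 groups by CPM. The median summed exon length was 995 bases for single-exon genes and 3499 bases for genes with 20 or more exons. Among short genes 40.1% of single-exon members and 27.3% of those with 6 to 10 exons were higher, and 5.09% and 10.2% were lower. Among long genes 23.6% of single-exon members were higher and 16.9% lower, whereas 10.3% of those with 20 or more exons were higher and 38.6% lower. Length was not equal within this group, with medians of 2114 bases for single-exon genes and 3500 bases with 20 or more exons. Of the 1534 tested members with 20 or more exons, 1529 were long, so this class could hardly be read at other lengths. The share higher among long genes was 23.9% and 24.1% with 2 and 3 to 5 exons, so that it was smaller only from 6 exons on, and among genes of middle length it was 29.4%, 26.3% and 28.9% with 1, 2 and 3 to 5 exons, without an order. Among genes of middle length the single-exon class and the class of 11 to 19 exons had 29.4% and 20.2% higher. In the group of highest CPM 46.3% of single-exon members were higher and 18.9% lower, whereas 34 of 567 members with 20 or more exons were higher and 58.7% lower. In the group of lowest CPM these shares were 26.9% and 3.21% with a single exon and 8.43% and 6.02% with 20 or more. The share called higher was smaller with 20 or more exons than with a single exon in all 5 groups. Effects of the library kit, of RNA quality and of the unequal depth on exon classes were not tested.

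**Figure D4:**
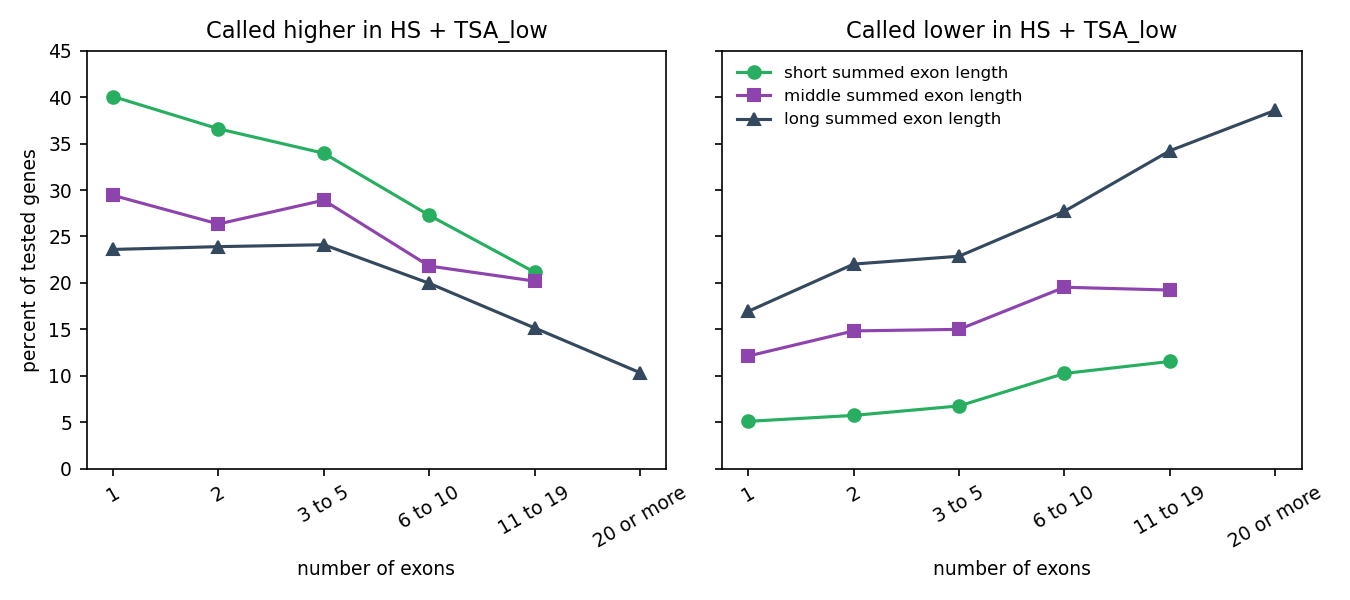
Percent of tested members called higher (left) and lower (right) in HS + TSA_low by number of exons, within 3 groups of equal size by summed exon length (short green, middle purple, long dark grey), for classes with at least 20 tested genes. Among long genes the share called higher is 23.6% with 1 exon and 10.3% with 20 or more, while the share called lower is 16.9% and 38.6%. The median summed exon length of these classes is 2114 and 3500 bases, so length still differs between them.

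The same was seen in the make-up of whole libraries. Single-exon genes held 12.4%, 12.5%, 11.3% and 11.9% of counts in HS + TSA_low libraries 1 to 4, against 8.29%, 7.73% and 7.85% in pollen libraries 1 to 3, a difference of 4.05 points without overlap (exact permutation test, two-sided p = 0.0286, adjusted p = 0.0357). Genes with 20 or more exons held 4.01%, 3.94%, 3.625% and 4.19% in HS + TSA_low, against 5.71%, 5.61% and 5.75% in pollen, a difference of -1.75 points without overlap (same test and p-values). At the high dose single-exon genes held 10.8%, 11.8% and 12.0%, and genes with 20 or more exons 5.29%, 4.67% and 4.59%, and the high-dose values of the class with 20 or more exons lay between those of HS + TSA_low and pollen.

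Not all changes at the low dose were found at the high dose. HS + TSA_low and HS + TSA_high were compared with the same pollen libraries, and over all genes tested 27.5% were higher and 18.8% lower in HS + TSA_high than in pollen. Of the members called higher at the low dose, 2122 (17.8%) were not called at the high dose, and of those called lower 2566 (32.8%) were not, 4688 genes in all. These had smaller changes, with a median log2 fold change of 1.06 at the low dose and 0.42 at the high dose for the 2122, and -0.91 at the low dose and -0.39 at the high dose for the 2566. Without HS + TSA_low libraries 2 and 3, 1316 genes took the place of the 2122. Another 17 members called higher at the low dose were called lower at the high dose, and 14 the reverse.

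Missing the threshold at 1 dose does not show a difference between doses, so HS + TSA_high was set against HS + TSA_low directly in the same fit. That contrast called 4.94% of all genes higher and 5.46% lower in HS + TSA_high, 10.4% in either direction. Among the 2122 genes, 517 were lower in HS + TSA_high than in HS + TSA_low, and among the 2566 genes, 508 were higher, while the remaining 1605 and 2058 were not called in the direct contrast. A member had to differ from pollen at the low dose and not at the high dose to be counted here, so that the direction of these calls was set by the choice. The replicate numbers were taken to pair the libraries of the 2 doses, and with the number as a block the 517 became 437 and the 508 became 303. That block was fitted over all groups, pollen included. Only HS + TSA_low has a library 4, so the block also took this library out of the contrasts. These changes are therefore not those of pairing alone. The first number ranged over 170 to 694 and the second over 208 to 720 when each library was left out in turn. For the first, the values outside 1.5 times were 197, 341 and 275 without HS + TSA_low library 1, 2 or 3, 170 and 247 without HS + TSA_high library 2 or 3, and 337 without pollen library 2. For the second they were 208 without HS + TSA_low library 1 and 286 and 315 without HS + TSA_high library 2 or 3.

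The 517 genes had a median log2 difference to the pollen mean of 0.91, 0.92, 1.05 and 0.65 in HS + TSA_low libraries 1 to 4 and of 0.06, 0.00 and 0.01 in HS + TSA_high libraries 1 to 3, against 0.07, -0.06 and 0.00 in pollen. The 508 genes had -1.02, -1.03, -0.94 and -0.92 in HS + TSA_low and -0.08, -0.02 and 0.01 in HS + TSA_high, against 0.04, 0.00 and -0.04 in pollen. The genes were chosen by these values, which are given as a description, and 1 gene of each set lay in a block.

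**Figure D5:**
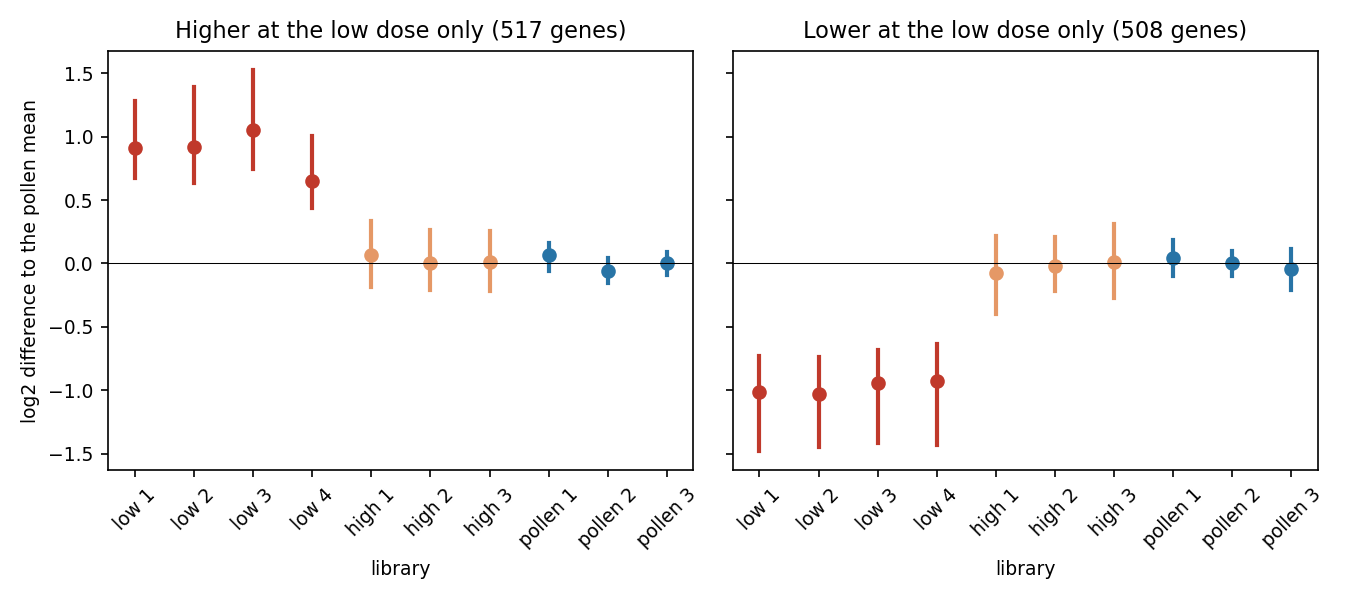
Log2 difference of CPM to the pollen mean in each library for the genes changed at the low dose only that also differed between doses in the direct contrast, higher at the low dose on the left (517 genes) and lower on the right (508 genes). Points are medians and bars the quartiles over genes, in red for HS + TSA_low, orange for HS + TSA_high and blue for pollen; the genes were chosen by these contrasts, and the HS + TSA_high libraries lie near 0 by that choice.

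These sets differed in exon number, which their choice did not use, as did all genes called higher and lower (medians of 4 and 7 exons). The 517 genes had a median of 3 exons and the 508 a median of 9, against 5 over all tested members. Genes with 20 or more exons were 3 of the 517 (0.580%), against 1.32% of all 11934 members called higher, and 70 of the 508 (13.8%), against 7.54% of all 7824 members called lower. All called genes thus leaned the same way. Read by class, 4.56% of all tested members with 20 or more exons were among the 508, against 0.747% of single-exon members. For the 517 the shares were 0.196% with 20 or more exons, 1.00% with a single exon and 1.93% with 3 to 5 exons. By subgenome, the 517 comprised 245 genes on A (1.15% of the tested A members) and 264 on C (1.13% of the tested C members), and the 508 comprised 284 on A (1.33%) and 220 on C (0.942%). The difference between A and C was not tested for these sets.

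The most abundant gene of the first set was C09p13050.1_BnaDAR (C09, 8232100 to 8232925, plus strand, 1 exon), which has no name in the files. It had 1371, 1068, 1298 and 1408 CPM in HS + TSA_low libraries 1 to 4 and 810, 639 and 623 CPM in HS + TSA_high, against 666, 481 and 524 CPM in pollen. Every HS + TSA_low library was above every other library. Its log2 fold change against pollen was 1.21 ± 0.16 at the low dose (SE; edgeR adjusted p = 1.11e-04) and 0.31 ± 0.16 at the high dose (adjusted p = 0.142). In the second set the most abundant in pollen was C03p78930.1_BnaDAR (C03, 60990208 to 60992999, plus strand, 5 exons), also unnamed. It had 252, 240, 293 and 292 CPM in HS + TSA_low and 328, 418 and 483 CPM in HS + TSA_high, against 537, 473 and 432 CPM in pollen. Its log2 fold change against pollen was -0.84 ± 0.15 at the low dose (edgeR adjusted p = 0.000851) and -0.23 ± 0.16 at the high dose (adjusted p = 0.258). The direct contrast of this gene had an adjusted p of 0.0258, and of 0.0533 with the replicate block.

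Of the study's ER stress list, 5 genes were called at the low dose only, all of them lower in HS + TSA_low than in pollen. These were 9.62% of the 52 list genes, near the 10.4% of tested members that were called at the low dose only (4688 of 45212). In all, 30 list genes (57.7%) were lower at the low dose and 3 (5.77%) higher, against 17.4% and 26.4% of all genes tested. The 5 genes called at the low dose only are among these 30. The share called depends on abundance, with 25.1% higher and 33.2% lower among members in the group of highest CPM. List genes were not compared with genes of like abundance. The 5 genes were a pair of copies of PDIL2-2 (PDI10.1 and PDI10.2), which encode protein disulfide isomerases, S1P.2, a copy of the site-1 protease that releases membrane-bound transcription factors, and BiP1.1 and BiP2.5, copies of the Hsp70 chaperone of the ER lumen. PDI10.1 (A10p03460.1_BnaDAR) had 29.3, 43.3, 41.6 and 35.1 CPM in HS + TSA_low libraries 1 to 4 and 50.3, 71.4 and 89.7 CPM in HS + TSA_high, against 53.2, 83.8 and 99.3 CPM in pollen, and of the 5 it was the 1 called in the direct contrast of doses (log2 fold change of HS + TSA_high over HS + TSA_low 0.92 ± 0.24, SE, edgeR adjusted p = 0.0334). For BiP2.5 that log2 fold change was 1.05 ± 0.40, with an adjusted p of 0.118 in edgeR. BiP1.1 (C03p57570.1_BnaDAR), the most abundant, had 247, 167, 250 and 294 CPM in HS + TSA_low and 288, 308 and 280 CPM in HS + TSA_high, against 413, 373 and 381 CPM in pollen. Its log2 fold change against pollen was -0.70 ± 0.16 at the low dose and -0.41 ± 0.18 at the high dose (edgeR adjusted p = 0.0046 and 0.0725). The log2 fold changes at the low dose were -1.70 ± 0.41 for BiP2.5, -0.88 ± 0.30 for S1P.2 and -0.72 ± 0.27 for PDI10.2 (edgeR adjusted p = 0.0054, 0.0313 and 0.0465). S1P.2 was no longer called with the replicate block, without libraries 1 and 4, or when HS + TSA_low library 1 or 4 or any 1 pollen library was left out. PDI10.2 was no longer called with upper-quartile scaling, with libraries 1 and 4 averaged or both left out, without HS + TSA_low library 1 or 4 or without pollen library 2 or 3.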

How the data were processed

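RNA of 10 libraries was amplified with a SMART-seq kit that does not mark strand and sequenced in pairs. Per the labels, reads were aligned with STAR 2.7.10a and counted with featureCounts (Subread 1.5.2) on the Darmor-bzh version 10 genome. The paper reports other versions of both programs, so the versions behind the deposited counts are uncertain. The authors deposited raw counts per gene, which were used here. Their normalized values and their columns of DESeq2 fold changes and p-values were not used. Of 61170 rows, 1712 repeated another row and 59458 genes remained. Of these, 4343 overlap another listed gene, and their counts are uncertain. No value column was left without a sample.

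The main test was edgeR 4.0.16 (R 4.3.3): filterByExpr (minimum count 10, minimum total 15), TMM scaling, robust quasi-likelihood test, Benjamini-Hochberg adjustment over 45264 genes. Each standard error is the absolute log2 fold change over the root of the F statistic. Library measures were compared by exact permutation tests. DESeq2 1.42.0 and limma 3.58.1 served as alternatives, and Python 3.11.15, pandas 2.3.3, scipy 1.17.1 and matplotlib 3.10.9 for tables and figures. The edgeR step was tested on simulated counts. Intervals and depth cover counting error only, since PCR copies and mates are not independent.

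The members, lists and alternatives were chosen with earlier results of these data known. At most 2 unnamed genes that rose and 2 that fell are printed: the most abundant on gene, off gene and low-dose-only genes that overlap no other gene. Marker lists for embryo, pollen and tapetum were not tested, since IDs could not be matched to names. The alternatives with HS + TSA_low libraries 1 and 4, or 2 and 3, left out and with the blocks left out were chosen after seeing the data.

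Replicate numbers are shared between groups. Deviations of same-numbered HS + TSA_low and HS + TSA_high libraries correlated by 0.43, 0.18 and 0.26, and since each exceeded 0.1 these numbers were taken to pair the libraries in the contrast of doses. Other-numbered libraries correlated by -0.37 to 0.38, among them library 2 more with HS + TSA_high library 3 (0.26) than with its own number, so the correlations also follow 2 sets of libraries and the pairing is weakly grounded. For HS + TSA_low and pollen the correlations were 0.08, 0.05 and 0.01, too low for a pairing, though the replicate block was fitted over all groups. The labels call the libraries biological replicates.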

Additional observations from a re-analysis of the deposited data

Results flagged for a closer look

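Among groups of 4 HS + TSA_low libraries examined for 1 library far from the others, 14 in all, A04p10200.1_BnaDAR was picked out, with a gap of 1.00 of the range: it had 0.0379 CPM in library 1, which is 2 counts, and 0 in the others. Chance picks about 1 group in 20, but that rate does not hold for tied values of 0. The gap is 1.00 whenever a single library has counts, and the gene was chosen as off. This flag therefore carries no evidence of an unusual library. Values under the level of 3 counts are at the limit of detection.

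A difference between the doses themselves picked out 3 genes. The log2 fold change of HS + TSA_high over HS + TSA_low was -0.90 for C09p13050.1_BnaDAR (edgeR adjusted p = 0.0071), 0.61 for C03p78930.1_BnaDAR (adjusted p = 0.0258) and 0.92 for PDI10.1, A10p03460.1_BnaDAR (adjusted p = 0.0334). With the replicate block the adjusted p-values were 0.0102, 0.0533 and 0.0169. The first 2 genes were named from sets that required this difference, and their flags are no further evidence for it.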

How the results depend on the processing

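Without each library in turn, 9867 to 12718 members were higher and 5667 to 8875 lower, 641 to 836 were on, 18 to 41 off and 3725 to 6031 changed at the low dose only. With only the HS + TSA_low and pollen libraries in the fit, 11768 were higher and 9843 lower. The DESeq2 Wald test called 12744 higher and 9131 lower, and limma-voom 11535 and 9383. In these fits the number lower was above the range given, so the excess of genes called higher depended on the fit. At an adjusted p of 0.01, 4534 were lower, which uses a stricter limit by construction. The share called higher of single-exon genes exceeded that of genes with 20 or more exons by 23.9 points, by 19.3 to 23.8 points without each library, and by 25.9 with the DESeq2 Wald test, 21.3 with limma-voom, 16.4 without a filter on low counts, 29.5 with a filter of 1 CPM, 22.0 with the replicate block, 26.3 with halved counts, 21.6 without libraries 1 and 4, 18.8 without libraries 2 and 3, 18.0 at an adjusted p of 0.01 and 9.30 between 1 and 11 or more exons among genes of middle length. The A minus C difference was 2.79 to 3.24 points without each library and 2.13 points without the blocks. For genes called lower that difference was 0.47 points and reversed to -0.22 points with limma-voom, -1.49 without libraries 2 and 3 and -0.018 without the blocks; apart from the blocks the cause was not tested. The 517 and 508 genes that differed between doses were 332 and 201 without libraries 1 and 4, and 73 and 88 at an adjusted p of 0.01; the 517 were 218 without libraries 2 and 3, and the 508 were 979 with DESeq2 and 303 with libraries 1 and 4 averaged. The replicate block changed no other call printed here than those named above.

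The exact permutation tests cannot pass 0.05 with 1 library or the pair left out, where the smallest p is above it. The differences were then 0.54 to 0.69 points for the A share, 3.89 to 4.30 for single-exon genes, -1.83 to -1.64 for genes with 20 or more exons and 2984 to 3598 genes at 1 CPM. With libraries 1 and 4 averaged they were 0.69, 4.01 and -1.80 points and 3378 genes, without libraries 1 and 4 0.78, 3.93 and -1.91 points and 3971 genes, and without libraries 2 and 3 0.51, 4.18 and -1.59 points and 2603 genes. The A share without the blocks was 0.50 points. The number of genes that hold 50% of the counts differed by -122, by -179 to -27.3 without each library and by 18.5 without libraries 2 and 3. On genes numbered 1015 without libraries 1 and 4. Off genes numbered 53 without libraries 1 and 4, 269 without libraries 2 and 3 and 35 at bounds of 0.05 and 0.5 CPM. At this depth a level under 0.1 CPM in HS + TSA_low is 6 counts or fewer, and off genes under 1 CPM in pollen were not sought.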
